A study of Mus musculus with 16 samples.

Results

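miR-221 and miR-222 are 2 microRNAs cut from neighbouring hairpins, and each hairpin yields a 5p and a 3p arm. The members described here are miR-221-3p, miR-221-5p, miR-222-3p and miR-222-5p. They were found by their listed name after removal of mismatch notes and trailing spaces, and make up 4 of the 2510 names in the deposited tables. All 4 were listed in every one of the 16 libraries.

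The study sequenced the small RNA of C2C12, an established line of mouse myoblasts whose cells stop dividing and fuse to myotubes in low serum. Every group descends from cells that the labels call C2C12 PAX7 NEG. Control cells are labelled wild-type and came as 2 populations. Triple-knockout (tKO) cells, 2 clones, are without the hairpins miR-1a-1 and miR-1a-2 as well as miR-206. GM is growth medium with 20% FBS, harvested at about 80% confluency. DM3 is day 3 in medium with 2% HS. The 4 groups are therefore control GM, tKO GM, control DM3 and tKO DM3, with 4 libraries each. Each group holds 2 lines (line 1 and line 2: a population or a clone) and 2 biological replicates of each line, so its 4 libraries are not 4 independent lines. A difference between genotypes rests on 2 clones against 2 populations, so an effect of the deletions and one shared by these clones cannot be told apart.

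MicroRNAs guide Argonaute proteins to partly complementary sites in messenger RNAs, mainly through the seed, bases 2 to 8 of the mature strand. The miR-221 and miR-222 hairpins lie together on the X chromosome and are transcribed as a cluster. The 3p arms are usually the guide strands, and the 5p arms the passenger strands. In proliferating cells the 3p arms are known to repress the cyclin-dependent kinase inhibitor p27 (Cdkn1b). In muscle cells the pair is known to be abundant in dividing myoblasts and low in differentiated myotubes.

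The mature sequences show what the 4 names have in common and where they differ. In RefSeq (GRCm38.p6) the Mir221 hairpin lies at chrX:19146294-19146388 and the Mir222 hairpin at chrX:19146893-19146971, both on the minus strand, with 504 bases between them. Both are annotated as microRNA genes of their own. The capitals in the 2 hairpins mark the 2 mature arms, and show where in the hairpin each member was cut.
Mir221 hairpin: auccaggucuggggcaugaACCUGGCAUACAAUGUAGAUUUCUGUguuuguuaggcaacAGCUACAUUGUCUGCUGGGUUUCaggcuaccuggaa
Mir222 hairpin: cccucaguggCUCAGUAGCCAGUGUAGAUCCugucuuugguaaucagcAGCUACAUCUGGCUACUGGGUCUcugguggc

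In the mature sequences the capitals mark the seed. The 3p arms share a seed, GCUACAU, while the 5p arms have seeds of their own.
miR-221-3p: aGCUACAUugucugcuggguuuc
miR-222-3p: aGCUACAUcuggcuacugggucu
miR-221-5p: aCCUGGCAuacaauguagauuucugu
miR-222-5p: cUCAGUAGccaguguagaucc
The first 8 bases of the 3p arms are identical, and 11 of their 23 positions agree when the strands are aligned from the 5′ end. RefSeq held mature entries for 3 members. The miR-222-5p sequence is the exact mature sequence of the deposited tables, placed on the RefSeq hairpin. On the minus strand the mature positions are chrX:19146307-19146329 for miR-221-3p, chrX:19146344-19146369 for miR-221-5p, chrX:19146901-19146923 for miR-222-3p and chrX:19146941-19146961 for miR-222-5p. No read of a member was split with another name in the tables.

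The libraries held between 112792 and 6543570 reads assigned to microRNA names. Depth went with the replicate number: in every line of every group replicate 2 held more reads than replicate 1. In tKO GM line 1 they held 1959148 and 1237924 reads, and in tKO DM3 line 1 3125381 and 112792. miR-206-3p, a deleted microRNA, stood at 837 to 1466 CPM (reads scaled to a total of 1000000 assigned reads) in control GM and at 0.808 to 15.5 CPM in tKO GM. It stood at 19950 to 57442 CPM in control DM3 and at 0.960 to 70.9 CPM in tKO DM3. The skeletal muscle list (miR-206-3p, miR-1a-3p, miR-133a-3p, miR-133b-3p and miR-499-5p) had 5 of 5 names with reads in every group, and its sum was 853 to 1491 CPM in control GM and 23032 to 59603 CPM in control DM3. In tKO cells, which lack 2 of the 5 by design, it was 8.89 to 25.5 CPM in GM and 108 to 989 CPM in DM3. Of the markers of other tissues, the sums for blood, endothelium and epithelium stayed between 0 and 41.6 CPM, and miR-124-3p of neurons had no reads. The other neuronal marker, miR-9-5p, was at 52.4 to 156 CPM in control and 0 to 21.6 CPM in tKO libraries. The liver marker miR-122-5p was at 3.90 to 75.5 CPM in GM and 0 to 8.96 CPM in DM3, so it moved with the medium as the members did; its part in their change was not tested. One library stands apart: tKO DM3 line 1 replicate 1 was the shallowest, with 18.9% of its reads under 18 nt and 35.4% assigned to miR-6240 and miR-6236. In the other 15 libraries those shares were at most 12.8% and 17.1%.

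The 3p arms were abundant and the 5p arms scarce. Over the 16 libraries miR-222-3p had 557479 reads (57.4% of the members' reads), miR-221-3p 382011 (39.3%), miR-221-5p 26857 (2.77%) and miR-222-5p 4530 (0.467%). In growth medium miR-222-3p ranked 9th to 26th among all names of a library by reads and miR-221-3p 18th to 32nd. The order miR-222-3p, miR-221-3p, miR-221-5p, miR-222-5p held in 16 of 16 libraries. The step between the 3p arms was the smallest: the log2 ratio of miR-221-3p to miR-222-3p reads lay between -1.18 and -0.06, and in tKO DM3 line 1 replicate 1 the arms had 358 and 374 reads. Levels of different names compare reads, and how well each sequence ligates was not tested. The widest Wilson 95% interval on a library's level was 10.4% of the value for miR-221-3p, 10.1% for miR-222-3p and 39.1% for miR-221-5p on either side. miR-222-5p had between 1 and 1079 reads a library, so its low levels are imprecise. Reads carry no molecular identifiers, and these intervals cover counting error only.

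Differentiation of control cells was followed by lower levels of all 4 arms. All 4 fell: miR-221-3p 4.16-fold, miR-222-3p 4.27-fold, miR-221-5p 5.42-fold and miR-222-5p 4.79-fold in the edgeR quasi-likelihood test across 807 names. In that comparison 11.8% of the tested names were called lower and 27.6% in either direction (Benjamini-Hochberg adjusted p under 0.05), against 4 of 4 members called lower. The cells were measured in bulk, so fewer cells of a type and less RNA per cell cannot be told apart.

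The levels that follow are CPM scaled by TMM, a per-library factor set so that most names do not change. miR-222-3p, the most abundant arm, stood at 26570, 21443, 26002 and 17671 scaled CPM in the control GM libraries (line 1 replicates 1 and 2, then line 2 replicates 1 and 2). In control DM3 it stood at 4182, 4927, 5669 and 6706 in the same order. All DM3 libraries were far below all GM libraries, and the lowest GM value came from the line and replicate with the highest DM3 value. The log2 fold change was -2.09 (SE 0.34, 95% interval -2.80 to -1.38, adjusted p = 0.000169, edgeR). Counting only exact mature reads without a tail, it was -1.38 (edgeR, adjusted p = 0.000452).

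miR-221-3p, with the same seed, stood at 12106, 12615, 18683 and 14204 scaled CPM in control GM, again line 1 then line 2. In control DM3 it stood at 2343, 2850, 3103 and 5542. The highest DM3 value, line 2 replicate 2, was still below every GM value. Its log2 fold change was -2.06 (SE 0.37, 95% interval -2.82 to -1.29, adjusted p = 0.000366, edgeR).

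miR-221-5p, the passenger arm of the first hairpin, stood at 673, 1099, 1188 and 1088 scaled CPM in control GM and at 74.1, 215, 187 and 266 in control DM3. Line 1 replicate 1 was the lowest library in both media, and in DM3 its value rests on 26 reads. On the log2 scale the change was -2.44 (SE 0.38, 95% interval -3.23 to -1.65, adjusted p = 0.000114, edgeR). With only reads of 18 to 25 nt, which drops the 26 nt mature form itself, it was -1.75 (adjusted p = 0.000324).

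miR-222-5p, the rarest arm, stood at 101, 176, 180 and 181 scaled CPM in control GM and at 20.0, 28.9, 36.99 and 45.2 in control DM3. The GM and DM3 values were well apart, but in DM3 they rest on 7 to 128 reads a library. The log2 fold change was -2.26 (SE 0.44, 95% interval -3.17 to -1.34, adjusted p = 0.000779, edgeR). Counting only exact mature reads without a tail gave -1.06 (edgeR, adjusted p = 0.102), which ends the call. With tailed reads included, the exact mature form is 9.40% of its reads on the hairpin.

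**Figure D1:**
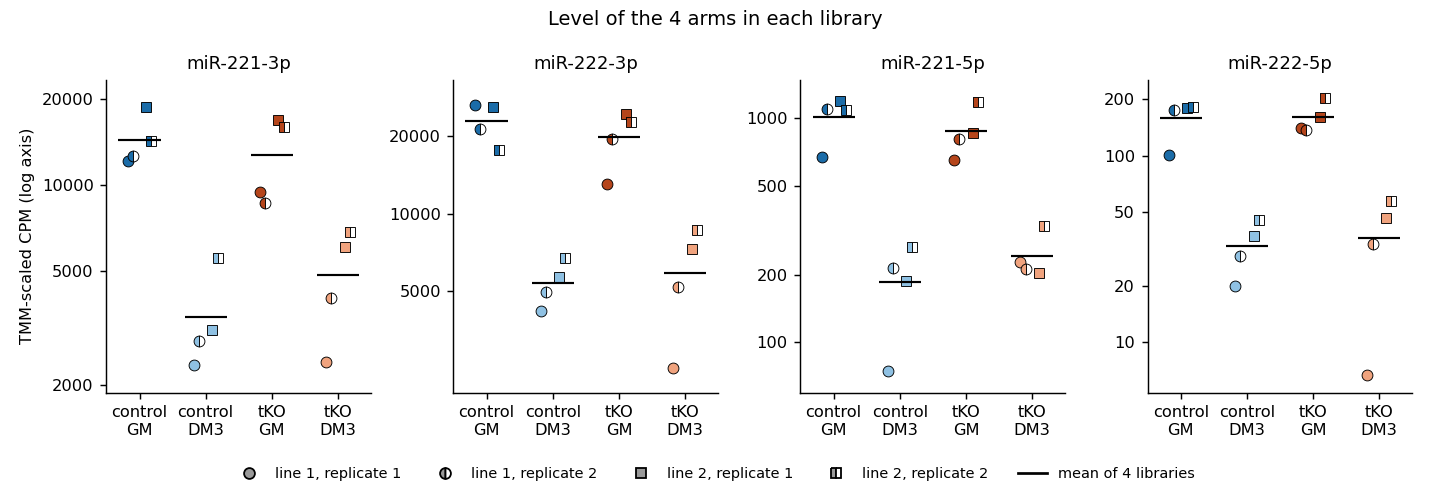
Level of each arm in each library, as TMM-scaled CPM on a log axis with a range of its own in each panel, for control and tKO cells in GM and DM3; symbols give line and replicate and bars the mean of 4 libraries. In all 4 panels every DM3 library lies below every GM library of its genotype, while control and tKO libraries of 1 medium overlap.

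The same arms fell in tKO cells, where the miR-206 family is missing. miR-221-3p was 2.63-fold lower in DM3 than in GM, miR-222-3p 3.37-fold, miR-221-5p 3.59-fold and miR-222-5p 4.13-fold. In this comparison 8.30% of the 807 names were called lower and 19.7% in either direction, and 4 of 4 members were called lower. No member's GM and DM3 libraries overlapped in either genotype. Among all tested names, 15.7% had every DM3 library below every GM library in control cells and 9.54% in tKO cells.

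miR-222-3p stood at 13026, 19560, 24336 and 22641 scaled CPM in tKO GM and at 2504, 5175, 7245 and 8635 in tKO DM3, clone 1 then clone 2. Clone 1 replicate 1 was the lowest library in both media. In edgeR the log2 fold change was -1.75 (SE 0.34, 95% interval -2.46 to -1.05, adjusted p = 0.00165).

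miR-221-3p stood at 9456, 8637, 16840 and 16021 scaled CPM in tKO GM and at 2397, 4035, 6082 and 6859 in tKO DM3. Both libraries of clone 2 were above both of clone 1 in either medium. With 2 libraries against 2 an exact test cannot go below p = 0.333. The log2 fold change was -1.39 (SE 0.36, 95% interval -2.15 to -0.64, adjusted p = 0.0106, edgeR). This is the member whose call rests on single libraries: without tKO GM line 2 replicate 1 it was -1.20 (adjusted p = 0.0753), and without tKO GM line 2 replicate 2 it was -1.29 (adjusted p = 0.0567). With the replicates of each line summed it was -1.23 (adjusted p = 0.145).

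miR-221-5p stood at 652, 803, 859 and 1177 scaled CPM in tKO GM and at 228, 212, 203 and 330 in tKO DM3. In GM both clone 2 libraries were again above both clone 1 libraries, but in DM3 clone 2 held the lowest and the highest value. In edgeR its log2 fold change was -1.84 (SE 0.37, adjusted p = 0.00181). miR-222-5p stood at 141, 138, 162 and 204 scaled CPM in tKO GM and at 6.69, 33.8, 46.1 and 57.3 in tKO DM3, where the lowest value is a single read. Its log2 fold change was -2.05 (SE 0.43, adjusted p = 0.00261, edgeR).

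Short reads moved with the medium in control cells. Reads under 18 nt made up 1.88% to 2.95% of control GM and 4.76% to 12.8% of control DM3 libraries, and miR-6240 and miR-6236 together took 0.555% to 1.60% and 4.85% to 17.1%. In tKO cells the media overlapped: reads under 18 nt made up 2.00% to 6.49% in GM and 2.96% to 18.9% in DM3, and the 2 names took 0.777% to 5.41% and 1.60% to 35.4%. Counting only reads of 18 to 25 nt, the log2 fold changes of the 3p arms were -1.67 (miR-221-3p) and -1.69 (miR-222-3p) in control cells and -1.28 and -1.68 in tKO cells, all called by edgeR (largest adjusted p = 0.00204). Without miR-6240 and miR-6236 they were -2.07 and -2.09 in control cells and -1.48 and -1.83 in tKO cells. Without tKO DM3 line 1 replicate 1 the 4 arms remained called in tKO cells, with log2 fold changes of -1.15 (miR-221-3p), -1.77 (miR-221-5p), -1.47 (miR-222-3p) and -1.78 (miR-222-5p).

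The study asked what loss of the miR-206 family does to muscle cells, so tKO was compared with control in each medium. No member passed the test in either medium. In GM the log2 fold changes of tKO against control were -0.18 for miR-221-3p (95% interval -0.92 to 0.56), -0.20 for miR-222-3p (-0.89 to 0.48), -0.21 for miR-221-5p (-0.96 to 0.53) and 0.01 for miR-222-5p (-0.84 to 0.86). In DM3 they were 0.49 (-0.25 to 1.23), 0.13 (-0.55 to 0.82), 0.38 (-0.38 to 1.14) and 0.22 (-0.68 to 1.12) in the same order. Without control DM3 line 2 replicate 2 the DM3 values were 0.92 for miR-221-3p and 0.71 for miR-221-5p (edgeR, adjusted p = 0.245 and 0.376). In edgeR the smallest adjusted p of a member was 0.966 in GM and 0.592 in DM3, and the unadjusted p was under 0.05 for 0 of 4 members in either medium; DESeq2 called 0 of 4 as well. Among the 807 names edgeR called 1.12% in GM and 0.867% in DM3, and 8.05% and 11.2% had an unadjusted p under 0.05. DESeq2 called 2.49% and 2.36% of the 804 names it gave an adjusted p. At these shares 0 of 4 is no result about the members. The genotypes overlapped for all 4 arms in both media, while 8.92% of names had no overlap in GM and 4.71% in DM3. The intervals are wide: for miR-221-3p in DM3 they reach from slightly lower to more than 1 log2 unit higher in tKO cells.

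The difference between the falls in tKO and control cells was tested as the interaction. The log2 interaction was 0.66 for miR-221-3p (95% interval -0.38 to 1.71), 0.34 for miR-222-3p (-0.63 to 1.30), 0.59 for miR-221-5p (-0.47 to 1.66) and 0.21 for miR-222-5p (-1.03 to 1.45). All 4 values are on the side of a smaller fall in tKO cells, and none passed (smallest adjusted p of a member = 0.937, edgeR). Of the 807 names 0 were called by edgeR and 0 by DESeq2 (0.00%), and 37 (4.58%) had an unadjusted p under 0.05, with 0 of 4 members among them. 

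**Figure D2:**
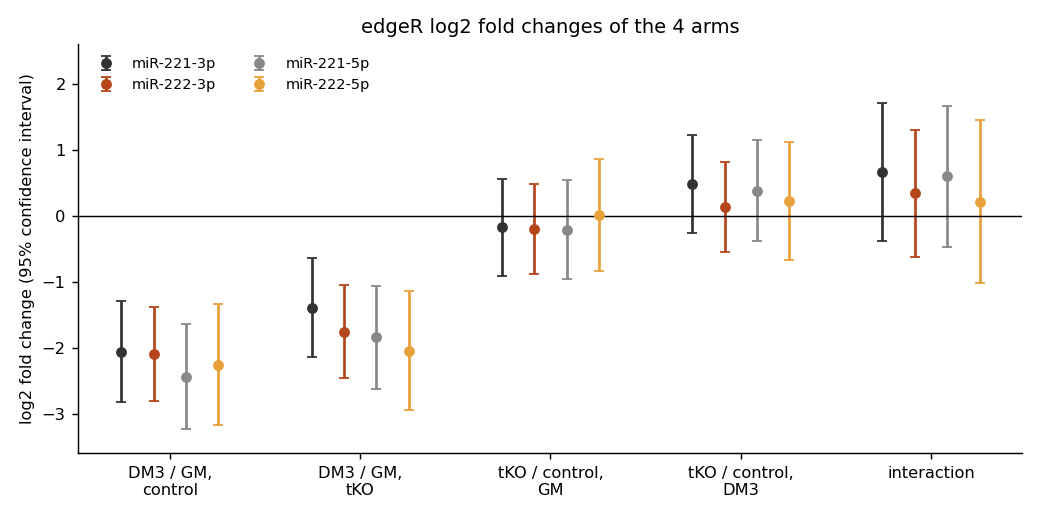
Log2 fold changes of the 4 arms from the edgeR fit of 16 libraries, with 95% confidence intervals, for DM3 against GM in each genotype, tKO against control in each medium, and the interaction. The 8 DM3 against GM intervals lie below 0, and the 12 other intervals include 0.

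The ratio of the 3p arms is free of scaling, since both are read in the same library. The mean log2 ratio of miR-221-3p to miR-222-3p reads was -0.67 ± 0.36 (SD, n = 4) in control GM, -0.67 ± 0.34 in tKO GM, -0.69 ± 0.28 in control DM3 and -0.25 ± 0.13 in tKO DM3. In tKO cells the ratio was higher by 0.42 in DM3 and the groups did not overlap (two-sided exact permutation test, p = 0.0286, the smallest that 4 against 4 libraries can give). After Benjamini-Hochberg adjustment over the 36 composition tests the p was 0.129, so this difference did not pass. Of the 36 tests 8 were at that smallest p, and the adjusted p of each was 0.129. A test at that smallest p can pass only if most of the 36 tests share it. The missed threshold therefore carries little information. Without tKO GM line 1 replicate 2, where the log2 ratio was -1.18, the difference was 0.25. Between tKO and control in DM3 the difference was 0.44 (exact permutation p = 0.0857, adjusted 0.206), with overlap.

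The 5p to 3p ratios were low for both hairpins. For miR-221 the mean log2 ratio was -3.84 ± 0.29 in control GM, -3.84 ± 0.36 in tKO GM, -4.28 ± 0.53 in control DM3 and -4.23 ± 0.63 in tKO DM3 (SD, n = 4 each). For miR-222 it was -7.18 ± 0.61, -6.92 ± 0.32, -7.36 ± 0.19 and -7.43 ± 0.36 in the same order. In tKO cells the miR-222 ratio was lower by 0.51 in DM3 (exact permutation p = 0.0286, adjusted 0.129). The groups only just missed overlap. The nearest values were -7.229 in tKO GM line 2 replicate 1 and -7.232 in tKO DM3 line 2 replicate 2. They rest on 249 and 244 miR-222-5p reads. Without tKO DM3 line 1 replicate 1, which had a single miR-222-5p read, the difference was -0.33 (adjusted p = 0.325).

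Reads of 1 name are not all the annotated sequence, and the 3p arms differed in where their reads started and ended. Shares of starts, ends and forms are of reads without mismatch that lie on the hairpin. miR-221-3p was precise: 99.9% of its reads started at the annotated 5′ end, and its commonest form, 51.1% of reads, was the annotated sequence. The form 1 base shorter at the 3′ end made up 33.1%. In miR-222-3p 97.3% started at the annotated base. In reads pooled over the 16 libraries its commonest form was 1 base longer than annotated, at 28.9%. The annotated form made up 27.4% of the pool and the form 2 bases longer 19.4%. By group means the form longer by 1 led in GM and the annotated form in DM3, in both genotypes. In tKO GM libraries the annotated form made up 22.7% to 30.2% and the form longer by 1 25.8% to 33.1%, with overlap. In tKO GM line 2 replicate 2 more reads ended at the annotated end (30.5%) than 1 base beyond it. In control DM3 the annotated form averaged 27.8% and the form longer by 1 25.98%, with overlap. In tKO DM3 libraries the annotated form made up 29.2% to 34.99% and the form longer by 1 20.9% to 24.6%. The 3 forms are shown because they are the commonest of the pooled reads of this arm. In tKO DM3 reads ending 1 base short of the annotated end averaged 13.6%, above the 12.3% ending 2 bases beyond it. The capitals again mark the seed, which the 3 forms share.
miR-222-3p annotated: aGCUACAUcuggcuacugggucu
miR-222-3p longer by 1: aGCUACAUcuggcuacugggucuc
miR-222-3p longer by 2: aGCUACAUcuggcuacugggucucu

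miR-222-5p departed most from its annotation: 58.1% of its reads started 1 base downstream of the annotated start and 34.7% at it. Its commonest form, 25.6% of 4150 reads on the hairpin, has the seed CAGUAGC in place of UCAGUAG, since a seed is counted from the read's own first base.
miR-222-5p annotated: cUCAGUAGccaguguagaucc
miR-222-5p commonest: uCAGUAGCcaguguagauccug
For miR-221-5p 97.4% of reads started at the annotated base, and the annotated form made up 68.9%.

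In DM3 libraries the reads of miR-222-3p were shorter than in GM libraries. The mean length of untailed reads was 23.76, 23.50, 23.61 and 23.44 nt in control GM and 23.16, 23.12, 23.17 and 23.19 nt in control DM3. In tKO GM it was 23.40, 23.43, 23.55 and 23.31 nt, and in tKO DM3 23.15, 22.84, 23.10 and 23.03 nt. The media did not overlap in either genotype. The differences were -0.41 nt in control and -0.39 nt in tKO cells (exact permutation p = 0.0286 each, adjusted 0.129). That p is the smallest the test can give, so the missed threshold carries little information. For miR-221-3p the differences were -0.07 and -0.09 nt, with overlap (exact permutation p = 0.0857 each, adjusted 0.206).

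As a background, mean length was computed for the 114 names with an untailed read in every library and at least 50 reads in every library. The DM3 libraries were shorter without overlap for 23.7% of them in control and 15.8% in tKO cells. A larger shortening than that of miR-222-3p was seen for 5 names in control and for 2 names in tKO cells, and the median difference was -0.03 and -0.01 nt. With reads of 18 to 25 nt alone the differences for miR-222-3p were -0.42 and -0.40 nt, and without tKO DM3 line 1 replicate 1 the tKO difference was -0.43 nt.

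The 3′ end was also read base by base. Reads extending beyond the annotated 3′ end made up 54.6% ± 3.8 of miR-222-3p reads in control GM and 43.3% ± 2.2 in control DM3 (SD, n = 4). In tKO cells they made up 50.4% ± 4.6 in GM and 35.8% ± 2.6 in DM3. Reads ending 2 bases short of the annotated end made up 5.80% and 10.8% in control GM and DM3, and 7.15% and 11.9% in tKO. For miR-221-3p reads beyond the annotated end were few, 6.73% ± 0.74 in control GM and 4.88% ± 0.40 in control DM3. These shares were not tested on their own. They include tailed reads and leave out mismatched ones, while the mean length takes untailed reads, mismatched ones included.

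**Figure D3:**
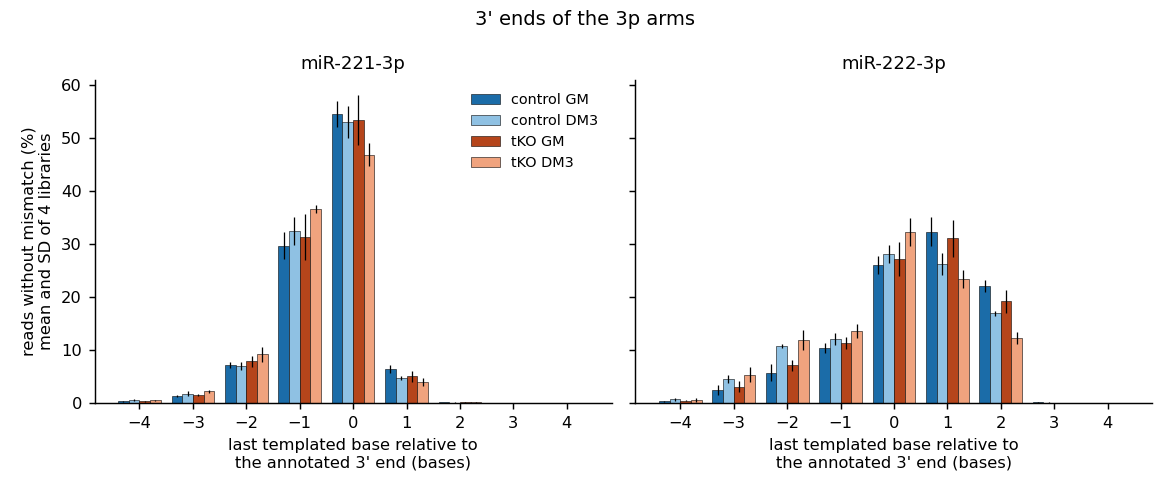
Last templated base of miR-221-3p and miR-222-3p reads without mismatch, relative to the annotated 3′ end, as percent of reads in each group (bars, mean; lines, SD of 4 libraries). By group means miR-221-3p peaks at 0 in all groups. By the same means miR-222-3p peaks at 1 base longer in GM (32.4% in control, 31.1% in tKO) and at 0 in DM3 (28.1% and 32.3%). In tKO GM and in control DM3 the libraries' shares at these 2 ends overlap.

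The 5′ end of miR-222-3p differed slightly between the media. Reads at the annotated start made up 97.8% ± 0.49 in control GM and 96.0% ± 0.43 in control DM3, and 97.7% ± 0.31 and 95.6% ± 0.98 in tKO cells. The groups did not overlap in either genotype (exact permutation p = 0.0286 each, adjusted 0.129). Reads that started upstream, and so carry a shifted seed, made up 1.81% in control GM and 3.32% in control DM3, and 1.89% and 3.87% in tKO cells. By the share of reads that begin with the first 8 mature bases, 16.2% of 105 names were lower in DM3 without overlap in control cells and 14.3% in tKO cells. For miR-221-3p the share at the annotated start was 99.9% or more in every library.

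Reads with a listed 3′ tail, bases that are not in the hairpin, were more frequent for miR-222-3p than for miR-221-3p. Tail shares are of all reads of a name, mismatched reads included. They made up 41.8% ± 2.4 of miR-222-3p reads in control GM, 38.7% ± 1.3 in tKO GM, 36.6% ± 1.9 in control DM3 and 33.9% ± 3.4 in tKO DM3. For miR-221-3p the shares were 23.95% ± 1.45, 21.6% ± 2.15, 22.4% ± 1.45 and 21.04% ± 0.85 in the same order. The miR-222-3p share was lower in DM3 than in GM of control cells by 5.21 points, and lower in tKO GM than in control GM by 3.09 points, both without overlap (exact permutation p = 0.0286 each, adjusted 0.129). Without control GM line 1 replicate 1, which had a share of 45.3%, the latter difference was -1.93 points. Among 119 names, 43.7% were lower without overlap in the former comparison and 5.04% in the latter. For miR-222-3p the DM3 minus GM difference in tKO cells was -4.85 points, with overlap (exact permutation p = 0.0571, adjusted 0.187). The tKO minus control difference in DM3 was -2.72 points, also with overlap (exact permutation p = 0.2, adjusted 0.343). A changed last base counts as a tail in these tables, so the share mixes additions and end mismatches.

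**Figure D4:**
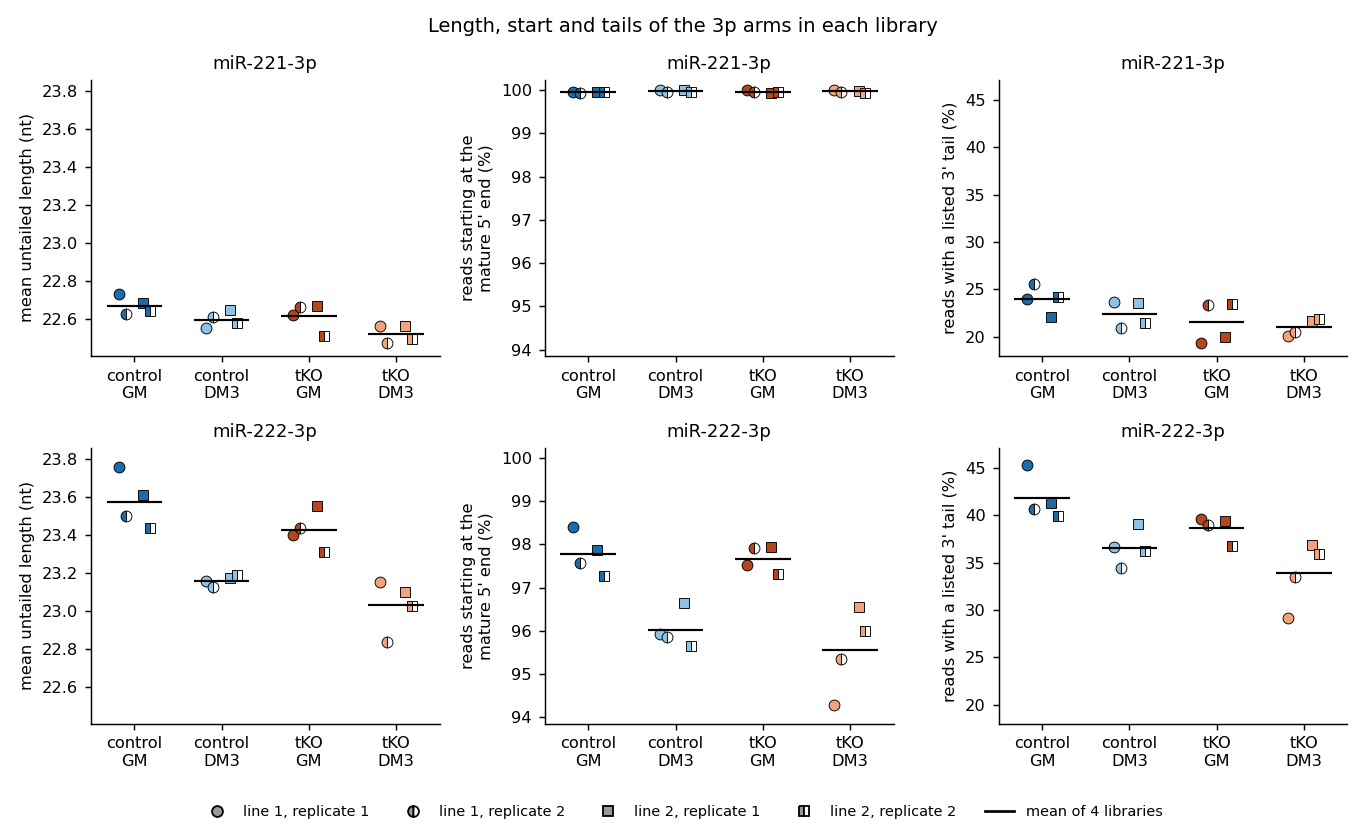
Mean untailed length (nt), percent of reads starting at the mature 5′ end and percent with a listed 3′ tail for miR-221-3p (top) and miR-222-3p (bottom) in each library; symbols give line and replicate, bars the mean of 4 libraries, and each column shares 1 axis that does not start at 0. miR-222-3p lengths and start shares of DM3 lie below those of GM in both genotypes, while those of miR-221-3p overlap between the media.

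Over the 16 libraries Pearson's r of log2(scaled CPM + 1) was 0.96 between the 3p arms, 0.93 between the arms of miR-221 and 0.95 between the arms of miR-222. With the group means removed it was 0.83, 0.58 and 0.81. For miR-221-3p with miR-222-5p it was 0.94 and, with the group means removed, 0.82. miR-221-5p was the least alike: with miR-222-3p it was at 0.90 and, with the group means removed, 0.37, and with miR-222-5p at 0.88 and 0.48. These values describe libraries that share their depth and scaling. Among 185 other names with a mean of at least 100 CPM and at least 50% of reads without mismatch, the most alike pattern to miR-222-3p was that of miR-125b-5p (r = 0.97), then miR-106b-3p (0.96) and miR-125a-3p (0.96). For miR-221-3p these were miR-106b-3p (0.96), miR-25-3p (0.95) and miR-100-5p (0.94). miR-221-5p was closest to miR-125b-1-3p (0.93), miR-100-5p (0.91) and miR-28a-3p (0.90), and miR-222-5p to miR-100-5p (0.97), miR-125a-3p (0.97) and miR-27a-5p (0.96). With the group means removed, the values for miR-221-5p were 0.57, 0.62 and 0.50 in the same order. For the names closest to the other members they were 0.75 to 0.90.

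Other microRNAs tied to proliferation give a scale for these falls. Of 11 names from the miR-17, miR-106a and miR-106b clusters, known as cell-cycle-promoting families, 7 fell and 0 rose on differentiation of control cells, and 5 fell and 0 rose in tKO cells (edgeR, adjusted p under 0.05), where 11.8% and 8.30% of all names were called lower. Their median log2 fold change was -1.57 and -1.20, against 0.02 and 0.01 over all 807 names. miR-92a-3p fell most, by 2.49 (SE 0.29) in control and by 2.34 (SE 0.29) in tKO cells, and miR-17-5p fell by 1.61 (SE 0.32) and 1.29 (SE 0.32), on the log2 scale. miR-19b-3p, at -0.65 and -0.39, did not pass in either (adjusted p = 0.340 and 0.624).

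Some of the listed muscle microRNAs rose. Of the 8 names 7 could be tested: 4 rose and 0 fell in control cells, and 2 rose and 0 fell in tKO cells, where 15.9% and 11.4% of all names were called higher. miR-133a-3p, a muscle microRNA that was not deleted, rose by 6.99 (SE 0.73) in control and by 6.29 (SE 0.73) in tKO cells on the log2 scale. miR-206-3p rose by 4.57 (SE 0.78) in control cells and was at 0.25 in tKO cells (adjusted p = 0.891). The 3 tested names that did not pass in control cells did not pass in tKO cells either; of these, miR-499-5p was at 0.60 in control cells (edgeR, adjusted p = 0.603). The deletion sets part of this list, since miR-206-3p and miR-1a-3p are its members.

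Most of the listed microRNAs that are known to restrain the cell cycle fell in control cells too, with a smaller median change than the 4 members. Of 11 names (the miR-15 and miR-16 relatives, miR-34a-5p and 3 of the let-7 family) 7 fell and 0 rose in control cells, and 0 changed in tKO cells by edgeR, where 4 had an unadjusted p under 0.05 and DESeq2 called 2, all lower. Of all 807 names edgeR called 11.8% lower in control and 8.30% in tKO cells. In tKO cells 15.0% of all names were lower at an unadjusted p under 0.05, and DESeq2 called 11.1% lower. The median log2 fold change of the list was -0.79 in control and -0.44 in tKO cells, against 0.02 and 0.01 over all names. miR-15b-5p fell by 1.56 (SE 0.32) and let-7a-5p by 0.95 (SE 0.29) in control cells. miR-34a-5p was at -0.35 (adjusted p = 0.452). The lists were picked with earlier results of these data known, and their counts are descriptions.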

How the data were processed

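Small RNA of 16 C2C12 libraries was prepared from 0.5 µg total RNA with inserts of 15 to 50 nt selected on a gel, per the labels' protocols. The authors deposited unitas tables, which list sequences of 13 to 75 nt with the microRNA name and the expected counts of reads, untailed and with 1 or 2 non-templated 3′ bases, without normalization, per the file headers. The unitas version and microRNA release are not given in the sources used here; the submitters' processing notes name cutadapt 1.15, STAR 2.5.4 and mm10.

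Expected counts were summed per name and rounded. Of 2510 names, 236 without an exact mature sequence were merged into their mature name, leaving 2274; no member took up merged names. One edgeR 4.0.16 fit (R 4.3.3) of all 16 libraries with a coefficient per group used filterByExpr (smallest count 10; 807 names left), TMM, robust quasi-likelihood F tests and Benjamini-Hochberg adjustment over 807 names (threshold 0.05). Nothing states that replicate numbers mark a shared batch, so p-values measure the spread between libraries. DESeq2 1.42.0, other scalings, filters, read selections, blocks, summed lines and left-out libraries were alternatives. The fit was tested on simulated counts.

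Ratios, length, 5′ start and tail share were compared per library by two-sided exact permutation tests (70 assignments; pseudocount 0.5 for ratios), adjusted over 36 tests. The 5p arms had under 50 reads in some libraries, so their forms were described without a test. The members and lists were chosen with earlier results of these data known. Values are given for the 4 members, up to 4 names of each list and the 3 most alike names per member. Depth was 112792 to 6543570 reads, where 3 reads equal 0.458 to 26.6 CPM. Sequences come from RefSeq (GRCm38.p6) and the deposited tables.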

Additional observations from a re-analysis of the deposited data

Results flagged for a closer look

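Each group of 4 libraries was searched for a library far from the other 3 by Dixon's gap ratio at its 95% critical value for 4 samples. Of 76 groups searched 7 held such a library, and chance alone gives about 1 in 20. The searched values share libraries, so they are not independent.

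Of these, 4 came from tKO DM3 line 1 replicate 1, the shallowest library, with 1 read of miR-222-5p and 34 of miR-221-5p. Its log2 ratio of miR-222-5p to miR-222-3p was -7.96, against -7.27 to -7.23 in the other 3 libraries of the group. Its mean miR-221-5p length was 25.90 nt against 25.20 to 25.26 nt, its miR-221-5p tail share 8.82% against 18.9% to 20.3%, and its miR-222-5p tail share 0% against 34.7% to 38.9%. All 4 values rest on a few reads of a 5p arm, and whether depth sets them was not tested.

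miR-222-5p stood at 101 scaled CPM in control GM line 1 replicate 1, from 49 reads, and at 176 to 181 in the other 3 control GM libraries. The log2 ratio of miR-221-3p to miR-222-3p was -1.18 in tKO GM line 1 replicate 2, against -0.53 to -0.46 in the rest of its group, at 20355 and 46099 reads of the arms. The same ratio was -0.27 in control DM3 line 2 replicate 2, against -0.87 to -0.79 in the rest of its group, at 15707 and 19004 reads.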

How the results depend on the processing

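The falls from GM to DM3 kept their direction in 280 of 280 alternative values (4 arms, 2 genotypes) and their call in 271. Calls were lost for miR-221-3p in control cells with replicate number 2 alone (-1.64). They were lost for miR-222-5p in control cells with exact mature reads (-1.06), and for miR-221-3p in tKO cells with lines summed (-1.23) and replicate number 2 alone (-1.12). In tKO cells replicate number 1 alone ended the call of miR-221-5p (-1.73), and replicate number 2 alone those of miR-222-3p (-1.54) and miR-222-5p (-1.84). Leaving out single libraries moved miR-221-3p in tKO cells between -1.65 and -1.15. These smaller fits have fewer libraries, and exact mature reads keep fewer reads.

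No label names a batch, but replicate number 2 was always deeper. Same-numbered libraries of different groups deviated together at a mean r of 0.10 (-0.46 to 0.64, 48 pairs of 551 names), and others at -0.10. With the replicate block the log2 fold changes in control cells were -2.08 (miR-221-3p), -2.49 (miR-221-5p), -2.11 (miR-222-3p) and -2.28 (miR-222-5p), and the block changed no member's call. It gave 241 and 168 called names for differentiation in control and tKO cells, 10 and 7 for tKO against control in GM and DM3, and 0 for the interaction. Each line is in both media, and its libraries deviated together at a mean r of 0.15 (-0.23 to 0.51, 16 pairs), against -0.14 for the other line of the genotype. With the line as a block the log2 fold changes were -2.09 (miR-221-3p), -2.46 (miR-221-5p), -2.11 (miR-222-3p) and -2.29 (miR-222-5p) in control cells and -1.42, -1.83, -1.82 and -2.12 in tKO cells, with all 8 called, and 244 and 175 names were called. Total-count scaling shifted the median of all names to 0.39 in control and 0.24 in tKO differentiation and to 0.24 for tKO against control in GM, from 0.02, 0.01 and 0.11. It gave -1.70 and -1.73 for the 3p arms in control cells.

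Genotype differences and interactions were never called, and their small values changed sign in places. In GM exact mature reads gave 0.012 (miR-221-3p), 0.029 (miR-221-5p) and 0.13 (miR-222-3p), and reads of 18 to 25 nt gave 0.0097 (miR-221-5p) and 0.0014 (miR-222-3p). miR-222-5p in GM was at -0.031 without the low-count filter, -0.16 with lines summed and -0.18 with replicate number 2 alone. With exact mature reads it was at -0.077 in DM3 and -0.47 in the interaction, which was -0.096 with 18 to 25 nt. Leaving out single libraries gave -0.37 to 0.058 for miR-221-3p and -0.16 to 0.14 for miR-222-5p in GM. In DM3 it gave -0.076 to 0.47 for miR-222-3p and -0.029 to 0.55 for miR-222-5p, and -0.038 to 0.55 for the miR-222-5p interaction. Without a change of sign it gave -0.39 to -0.063 (miR-221-5p) and -0.36 to -0.036 (miR-222-3p) in GM, and 0.30 to 0.92 (miR-221-3p) and 0.20 to 0.71 (miR-221-5p) in DM3. For the interaction it gave 0.48 to 1.11 (miR-221-3p), 0.43 to 0.94 (miR-221-5p) and 0.14 to 0.70 (miR-222-3p).

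For the composition tests only values are given, since with 4 libraries a group or fewer a missed threshold says nothing about stability. The ratio of the 3p arms in GM between genotypes was -0.024 without mismatches and -0.0083 with 18 to 25 nt, and -0.15 to 0.18 with a library left out. Its DM3 minus GM difference in control cells ranged from -0.17 to 0.10. The miR-221 arm ratio between genotypes was -0.014 without mismatches in GM and -0.024 with 18 to 25 nt in DM3, and -0.13 to 0.16 in GM and -0.24 to 0.27 in DM3 with a library left out. The miR-222 arm ratio ranged from -0.023 to 0.45 in GM and -0.16 to 0.10 in DM3 between genotypes, and from -0.45 to 0.019 for DM3 minus GM in control cells. The miR-221-3p tail share in tKO cells ranged from -1.24 to 0.12 points, and the miR-222-3p start share between genotypes in GM from -0.28 to 0.099 points.

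Names called over all alternatives numbered 2 to 20 for tKO against control in GM (9 in the reported fit) and 1 to 74 in DM3 (7). For differentiation they numbered 85 to 274 in control (223) and 74 to 212 in tKO cells (159), and 0 to 1 for the interaction. In DM3 leaving out tKO DM3 line 1 replicate 1 gave 53. Depth limits miR-222-5p most.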
